A study of Mus musculus with 3 samples.

Results

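General capillary endothelial cells of the mouse lung were selected by their transcripts from 3 droplet libraries (10x 3′ chemistry), in which each unique molecular identifier (UMI) counts 1 captured RNA molecule. A barcode was kept with at least 250 genes and at most 15% of its UMIs from mitochondrial genes. A member had at least 2 UMIs of Gpihbp1, at least 1 UMI of Pecam1 or Cdh5, no UMI of Ednrb, at most 1 UMI of Car4, and no UMI of Prox1, Mmrn1, Ptprc, Col1a1 or Col1a2. The rule gave 690 members of 28782 kept barcodes. Of these, 650 came from non-irradiated wild-type mice, 7 from irradiated wild-type mice, and 33 from irradiated conditional knockout mice that were also given a drug. Each group is 1 library. The sources used here do not give the knocked-out gene, the driver of the knockout, the drug, the radiation dose, the time of collection, or the number and age of the mice. Knockout and drug come together in 1 library, so their parts cannot be told apart, and no irradiated knockout without drug or non-irradiated knockout was analysed here. With 1 library per group no test between groups was possible. Values are therefore given with exact 95% intervals that cover counting error only, not differences between mice. The intervals of CPM and of their ratios treat UMIs summed over cells as independent, so they also leave out the spread between cells.

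General capillary cells line the alveolar capillary network together with aerocytes, the large capillary cells specialised for gas exchange. They are regarded as the progenitors of the network: after injury they divide and give rise both to their own kind and to aerocytes. Gpihbp1 carries lipoprotein lipase to the capillary surface, where triglyceride-rich particles are broken down. Kit is the receptor of stem cell factor, Aplnr the receptor of apelin, Plvap builds the diaphragms of endothelial caveolae, and Sema3c is a secreted semaphorin. Ionising radiation breaks DNA, and the transcription factor p53 then switches on genes that stop the cell cycle, repair the damage or kill the cell.

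The bases upstream of 4 genes are shown, because the results on irradiated members turn on them: Cdkn1a and Phlda3, p53 targets at higher CPM (UMIs scaled to a total of 1000000) in both irradiated libraries, Ankrd37, a target of hypoxia-inducible factors with the same pattern, and Sema3c, a marker at lower CPM there. Each run holds the 250 bases before the first annotated start, 5′ to 3′ on the gene's strand, from RefSeq (GRCm38.p6), which for Cdkn1a is the more distal of 2 listed starts. Of the 5 general capillary markers, 2 had an entry in the sequence table, Sema3c and Kit. Capitals mark matches to the p53 decamer motif or to ACGTG, the core bound by hypoxia-inducible factors, each searched on both strands. No matches overlapped. They lie at chr17:29090729-29090978, plus strand (Cdkn1a), chr1:135765835-135766084, plus strand (Phlda3), chr8:45999851-46000100, minus strand (Ankrd37) and chr5:17574566-17574815, plus strand (Sema3c).
Cdkn1a: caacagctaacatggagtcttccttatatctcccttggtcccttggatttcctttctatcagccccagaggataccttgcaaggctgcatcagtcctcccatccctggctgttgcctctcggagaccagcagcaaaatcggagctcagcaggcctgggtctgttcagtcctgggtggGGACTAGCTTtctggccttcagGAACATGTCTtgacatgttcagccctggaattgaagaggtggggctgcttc
Phlda3: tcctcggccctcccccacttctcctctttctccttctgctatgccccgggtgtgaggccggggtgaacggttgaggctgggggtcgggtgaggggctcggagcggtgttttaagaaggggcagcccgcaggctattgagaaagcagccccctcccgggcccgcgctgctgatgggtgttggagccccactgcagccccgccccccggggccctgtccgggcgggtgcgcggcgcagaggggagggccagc
Ankrd37: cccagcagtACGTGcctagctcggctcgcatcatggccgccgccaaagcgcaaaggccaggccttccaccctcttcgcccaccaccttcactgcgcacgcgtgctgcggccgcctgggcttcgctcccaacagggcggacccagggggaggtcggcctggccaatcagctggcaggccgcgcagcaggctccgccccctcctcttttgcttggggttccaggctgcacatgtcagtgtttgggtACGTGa
Sema3c: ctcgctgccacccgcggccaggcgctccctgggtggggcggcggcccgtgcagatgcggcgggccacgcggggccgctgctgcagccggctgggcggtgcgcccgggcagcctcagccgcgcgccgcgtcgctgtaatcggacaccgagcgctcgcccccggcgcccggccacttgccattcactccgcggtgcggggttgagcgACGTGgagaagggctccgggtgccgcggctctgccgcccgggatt
The Cdkn1a run held 2 p53 decamers and no ACGTG, the Ankrd37 run 2 ACGTG cores, the Sema3c run 1 ACGTG core, and the Phlda3 run neither. The run before the second Cdkn1a start, not shown, held neither motif. Among 32851 upstream runs of this length, 7.13% held a p53 decamer and 16.6% an ACGTG core. A match is a stretch of letters and not a shown binding site, and no binding was measured here.

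The libraries held 85984536, 45800421 and 76667310 UMIs for non-irradiated, for irradiated wild-type, and for knockout mice with drug, the order used throughout. The non-irradiated library shared 28 barcodes with the irradiated wild-type and 46 with the third library, and the irradiated libraries shared 25; no member had the same barcode as a member of another library, and 3 non-irradiated members had a barcode that the third library also holds. The median member had 3559.5, 7729 and 4259 UMIs, and the members together had 3014295, 49316 and 210643 UMIs. In the 7 irradiated wild-type members 3 UMIs, the limit that a count of 0 allows, are 60.8 CPM, so any gene below that level can be listed at 0 there. In the 33 members of the third library the limit is 14.2 CPM, and in the 650 non-irradiated members it is 0.995 CPM. Members of female type (Xist detected, no Y-linked UMI) numbered 542, 5 and 26, and 1 irradiated wild-type member was of male type. Of the aerocyte-gated cells described below, 191, 19 and 33 were of female type and 0, 9 and 0 of male type. In both sets male-type cells were thus found in the irradiated wild-type library only, and the part of sex in the ratios was not tested.

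RNA typical of other cells was most abundant in the non-irradiated members. The 10 genes of type 2 alveolar epithelium summed to 3289.7, 40.6 and 242 CPM in members. Lymphocytes, which do not make surfactant, held 2599, 230.1 and 271 CPM of the same 10 genes and served as the yardstick for free RNA. The 17 fibroblast and mural genes summed to 1069, 60.8 and 385 CPM in members, with Col1a1 and Col1a2 at 0 by the rule. The 15 lymphocyte genes summed to 214, 101 and 133 CPM, with Ptprc at 0 by the rule. The 10 platelet and erythroid genes summed to 5658, 60.8 and 223 CPM in members and to 1378, 1339 and 1685 CPM in lymphocytes, and their part in the results was not tested. Doublets were not removed, and the barcodes with the highest doublet scores included 32, 0 and 0 members.

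The label fits the non-irradiated members by its own markers, of which 1, Gpihbp1, is part of the rule. In the non-irradiated members Sema3c had at least 1 UMI in 85.1% of cells, Plvap in 83.7%, Kit in 72.3% and Aplnr in 32.0%. After thinning every cell to 1000 UMIs, which left out 42 shallower members, the shares were 74.0% for Sema3c, 58.1% for Plvap, 37.3% for Kit and 12.8% for Aplnr. The same genes were found in 0.688%, 1.10%, 0.275% and 0% of lymphocytes thinned alike. Before thinning the median non-irradiated lymphocyte had 5115 UMIs, more than the median member.

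At the thresholds the values changed by degrees. The 165 non-irradiated members with exactly 2 Gpihbp1 UMIs held 2037 CPM of Sema3c and 524 CPM of Kit. The 288 cells just outside, with 1 Gpihbp1 UMI, held 1352 CPM of Sema3c and 323 CPM of Kit at a lower median depth (1865 against 2570.0 UMIs). The 836 cells that met the rest of the rule without Gpihbp1 held 306 CPM of Sema3c, 64.2 CPM of Kit and 446 CPM of Cd93. For them 1 UMI of Pecam1 or Cdh5 was enough, and whether all are endothelial was not tested. At the Car4 limit, 152 members had 1 UMI and 66 cells with 2 UMIs fell outside, with 1949 and 2229 CPM of Sema3c.

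In the non-irradiated members genes of lipid uptake were abundant. Gpihbp1 (ENSMUSG00000022579), which chose the cells, was at 1187 CPM. Cd36, a fatty acid carrier, stood at 2225 CPM in 95.7% of cells, and Cav1 and Cavin2, which shape caveolae, at 1552 and 1576 CPM. Lpl, the lipase that Gpihbp1 anchors, was at 177 CPM in 40.2% of cells, against 23.7 CPM in lymphocytes. Fabp4, a fatty acid-binding protein typical of capillaries elsewhere in the body, was near the free-RNA level, at 6.97 against 6.64 CPM in lymphocytes.

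Receptors formed the next group. Ptprb, a phosphatase that acts on the angiopoietin receptor, was at 2713 CPM, Calcrl, the adrenomedullin receptor, at 2718 CPM, and Cd93 at 2003 CPM. Bmpr2, a receptor for bone morphogenetic proteins, was at 1996 CPM, and Eng and Acvrl1, which act with it, were at 1092 and 957 CPM. The angiopoietin receptor Tek was at 664 CPM, Kit at 500.0 CPM and Kdr, the main VEGF receptor, at 391 CPM. Counts of 3′ ends do not scale with transcript length, but capture differs between genes, so these levels place a gene against itself in other cells better than against its neighbours.

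Among secreted proteins, Sema3c (ENSMUSG00000028780) was at 1957 CPM, the chemokine Cxcl12 at 982 CPM and the growth factor Bmp6 at 466 CPM. Vegfa was at 381 CPM in 61.8% of cells, against 66.9 CPM in lymphocytes. Edn1, which encodes the vasoconstrictor endothelin, was at 163 CPM, and Apln, the ligand of Aplnr, at 24.2 CPM in 2.92% of cells.

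Of the 29 endothelial transcription factors listed, those with the highest levels were Epas1, a hypoxia-inducible factor, at 4481 CPM, the flow-responsive Klf2 and Klf4 at 1512 and 1199 CPM, and Foxf1 at 954 CPM. Klf2 was at a like level in lymphocytes, 1449 CPM, whereas Epas1 and Foxf1 were at 36.3 and 5.76 CPM there. Genes of blood pressure and coagulation were widespread: Ace, the angiotensin-converting enzyme, was at 1227 CPM, Thbd, thrombomodulin, at 1152 CPM and Hpgd, which degrades prostaglandins, at 2174 CPM in 90.9% of cells. Cldn5, the tight junction protein of endothelium, reached 3339.8 CPM. Leaving out haemoglobin, mitochondrial and ribosomal protein genes, the 15 genes with the highest levels also included Malat1, Actb, Tmsb4x, Tpt1, Eef1a1, Itm2b, B2m, H2-D1, Actg1, Ptma and Sptbn1, of which Sptbn1 and Itm2b were far above lymphocytes (2524 against 82.4 CPM and 3003 against 440.1 CPM). Mki67 or Top2a, genes of dividing cells, had a UMI in 16 of the 650 members.

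The most closely related cells were the 215 aerocyte-gated cells of the same library, which carry Ednrb and at least 2 UMIs of Car4. The rules of both sets use Car4 and Ednrb and only the members' rule requires Gpihbp1, so these 3 genes are no finding. A gene is called apart at a ratio of at least 2 with 5 CPM added on both sides and at least 30 UMIs in the higher set. In members 107 of 10177 tested genes (1.05%) were higher and 204 (2%) were lower. With every cell thinned to 1000 UMIs the split turned, with 309 higher and 131 lower, and with 20 CPM added it was 20 and 128. The thinned sums came from 608 members and 205 aerocyte-gated cells, so the minimum of 30 UMIs was easier to reach in members. Its part in the turn was not tested. In every gene list below, genes that the rule uses were left out of the counts and medians. Among 12 venous markers 11 were tested, and 10 of them were at least 1.5-fold higher in members, with none lower, while 6.81% of all tested genes were that much higher (median log2 ratio 1.15, against 0.01 over all tested genes).

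Slc6a2, a noradrenaline transporter, was at 133 against 28.1 CPM (4.73-fold higher, interval 3.57 to 6.38). The leukocyte adhesion gene Vcam1 was at 67.3 against 16.1 CPM and the protease gene Prss23 at 238 against 79.8 CPM. These sums do not describe most members. The 379 members without a Vwf UMI held 2.89, 20.2 and 72.1 CPM of Slc6a2, Vcam1 and Prss23. The 112 with at least 3 Vwf UMIs, described below, held 472, 192 and 622 CPM. Arterial markers were also higher in 11 of 13 tested genes and lower in none, with the transcription factor Sox17 at 267 against 145 CPM, Gja4, a gap junction gene, at 166 against 87.8 CPM, and Hey1, a Notch target, at 133 against 78.3 CPM. Vwf is on both lists, at 571 against 253 CPM. Mgp, at 541 against 202 CPM, is among these arterial markers and stood at 363 CPM in lymphocytes.

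In the wider general capillary list, 11 of 16 tested genes were at least 1.5-fold higher than in aerocyte-gated cells and none lower. Kit was at 500.0 against 238 CPM (2.10-fold higher, interval 1.89 to 2.33) and Tek at 664 against 368 CPM. Sema3c differed less, at 1957 against 1364 CPM. Outside that list, Npr3, a clearance receptor for natriuretic peptides, stood at 564 against 274 CPM and Inhbb, a subunit of activin, at 64.7 against 19.1 CPM.

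On the other side, 10 of 12 tested aerocyte markers were at least 1.5-fold lower in members, while 5.85% of all tested genes were that much lower. Emp2, a membrane protein of thin epithelium and aerocytes, was at 72.0 against 2437 CPM (33.9-fold lower, interval 29.5 to 39.0). The transcription factor gene Tbx2 was at 12.9 against 387 CPM, Fibin at 3.32 against 398 CPM and Chst1 at 3.32 against 191 CPM. Within the VEGF and angiopoietin list the receptors parted: Kdr was at 391 against 1629 CPM and Nrp1 at 556 against 1287 CPM, while Flt1 was nearly level at 972 against 879.9 CPM and Tek was higher in members. Egflam, Tmeff2, Sirpa and Frrs1 were the remaining genes among the 10 lowest ratios.

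Some of the genes higher in members are those of other cells. Lyz1, Dpt, Mmp2, Inmt, Ccl5 and Cd79a are among the 15 highest ratios, and Ccl5 stood at 1178 CPM in lymphocytes against 60.0 CPM in members. The fibroblast and mural list was higher in members in 8 of 13 tested genes and the lymphocyte list in 6 of 10. The aerocyte-gated cells were deeper, with a median of 5578 UMIs. The part of free RNA and depth in these ratios was not tested. Adgrg6, Trp53i11, Samd5 and Fam107a completed the 15.

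**Figure D1:**
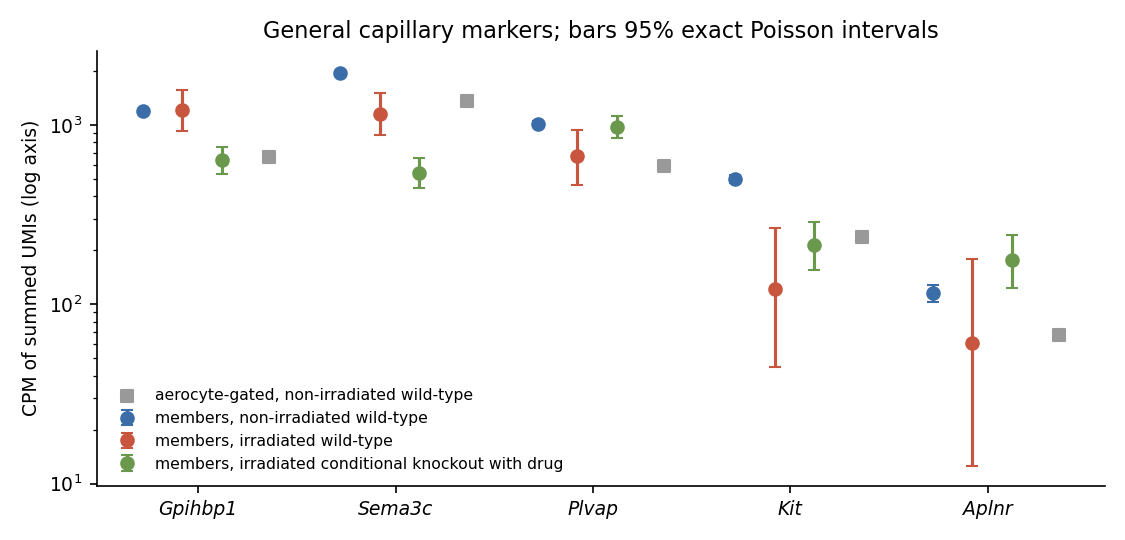
CPM (log axis) of the 5 general capillary markers in summed UMIs of the members of each library, with exact Poisson 95% intervals, and in the 215 non-irradiated aerocyte-gated cells (squares, no interval drawn). Sema3c and Kit are lower in both irradiated libraries, while in the third library Plvap is near its non-irradiated level and Aplnr above it. Gpihbp1 chose the cells and is drawn as a description.

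The non-irradiated members were not uniform. With 608 members thinned to 1000 UMIs, the ratio of variance to mean was 1.04 at the median of 3598 genes, where counting alone gives 1. The 12 most variable genes, in falling order of this ratio from 86.0 to 2.95, were Scgb1a1, Malat1, Cxcl2, Sftpc, Ccl5, Mgp, Sftpa1, Inmt, Mfap4, Slc6a2 (3.99), Vwf (3.28) and Cd74. At 3000 UMIs 3 of them ranked lower, Cxcl2 at 201, Inmt at 111 and Mfap4 below both. In lymphocytes 10 of these genes were above 30 CPM. Slc6a2 (0.886 CPM) and Vwf (4.21 CPM) were the exceptions.

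Vwf encodes von Willebrand factor, which platelets bind and which is made mainly by larger vessels. It had no UMI in 379 members, 1 or 2 UMIs in 159, and 3 or more in 112 (17.2%), whose median depths were 3100, 3972 and 5480 UMIs. This split was chosen after the values were seen and is described without a test. Members with at least 3 Vwf UMIs had 55 of 8649 genes apart upward (0.636%) and 75 downward (0.867%) against those with none.

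The genes higher in Vwf-carrying members included several venous markers. Slc6a2 was at 472 against 2.89 CPM, Prss23 at 622 against 72.1 CPM and Vcam1 at 192 against 20.2 CPM. Bst1, Amigo2 and Car8, also on the venous list, were at 86.9, 76.2 and 82.1 CPM against 2.89, 6.49 and 7.94 CPM. Igfbp5, which binds insulin-like growth factors, was at 129.7 against 2.89 CPM, and Cpe, at 54.7 CPM, had no UMI in members without Vwf.

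Of the general capillary markers, Sema3c differed little between these members. It was at 1893 and 1892 CPM in those with at least 3 and with no Vwf UMIs, and Plvap at 1157 and 901 CPM. Kit was lower in the Vwf-carrying members (346 against 547 CPM), as were Aplnr (73.8 against 136 CPM), Apln (2.38 against 34.6 CPM) and the sodium channel gene Scn7a (713 against 1243 CPM). Sftpc of type 2 epithelium differed with the split too, at 813 against 3518 CPM, and its part in the differences was not tested.

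**Figure D2:**
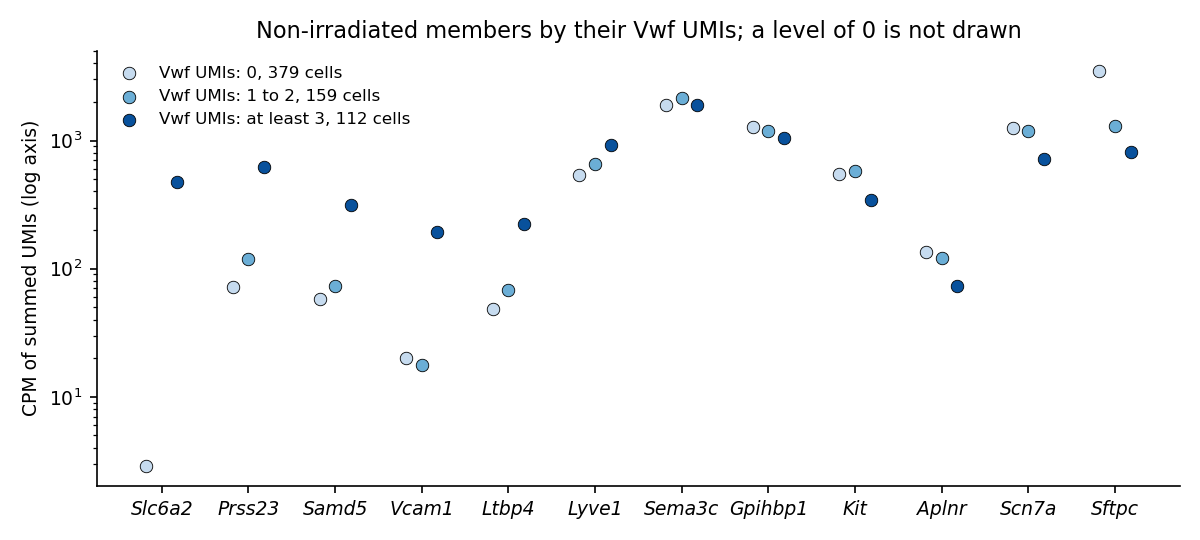
CPM (log axis) of 12 genes in non-irradiated members with 0, 1 to 2, or at least 3 UMIs of Vwf. Slc6a2, Prss23, Samd5, Vcam1 and Ltbp4 stand apart in the 112 cells with at least 3 UMIs, while Sema3c stays close in the sets with none and with at least 3. Gpihbp1 chose the cells, and Slc6a2 is not drawn for the middle set, where it has no UMI.

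Slc6a2 and Gja5, a gap junction gene of arteries, were found in different members. Slc6a2 had a UMI in 34 of the 650 members, 30 of them with at least 3 Vwf UMIs, and Gja5 in 29. No member had both, and with so few cells this was not tested. Cxcl12 was at 2080.4 CPM in the Gja5-positive and 260.1 CPM in the Slc6a2-positive members, Inhbb at 235 and 23.6 CPM, and Kit at 507 and 216 CPM. Sema3c was found in both sets, at 1253 and 1689 CPM. Their median depths were 5711 and 6537 UMIs, above the 3559.5 of all members.

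Across 401 non-irradiated members thinned to 3000 UMIs, and as a description within 1 library, Vwf varied with Slc6a2 (Pearson r 0.61), Prss23 (0.50), Samd5 (0.42) and Ltbp4 (0.41). Of 3464 genes, those most like Sema3c were Scn7a (0.50), Epas1 (0.43), Cavin2 (0.43) and Bmpr2 (0.42). Gpihbp1 went with Cldn5 (0.36) and Ramp2 (0.32), and Plvap was weakly negative with Sema3c (-0.22). Kit and Aplnr had no partner above 0.3. The 97 members without a Sema3c UMI were shallow, with a median of 1340 UMIs.

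The irradiated libraries held few such cells. Members were 4.97% (interval 4.60 to 5.35) of kept non-irradiated barcodes, 0.121% (0.0485 to 0.248) of the irradiated wild-type and 0.334% (0.230 to 0.468) of the irradiated knockout library with drug. As a share of endothelial-gated cells (Pecam1 or Cdh5 detected, Ptprc, Col1a1 and Col1a2 absent), which numbered 2314, 187 and 444, members were 28.1%, 3.74% and 7.43%. This gate may not select alike in the 3 libraries. Its cells that met the rest of the members' rule without Gpihbp1 numbered 836, 135 and 327. They held 446, 129 and 214 CPM of Cd93, and how many of them are endothelial was not tested. The intervals of the non-irradiated share did not overlap those of the irradiated shares on either denominator. The aerocyte-gated share of the same gated cells was 9.29%, 17.6% and 8.33%. Aerocyte-gated cells were fewer than members without irradiation (215 against 650) and more numerous in irradiated wild-type lung (33 against 7). In the knockout library they were 37 against 33. Of kept barcodes the aerocyte-gated cells were 1.64%, 0.568% and 0.374%, also lower in both irradiated libraries.

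Few cells of the irradiated libraries lay just outside the Gpihbp1 threshold. With 1 Gpihbp1 UMI there were 2 such cells in the irradiated wild-type library and 8 in the knockout library, and the 135 and 327 cells without Gpihbp1 held 45.1 and 90.7 CPM of Sema3c. A threshold of 1 UMI gave shares of 7.17%, 0.155% and 0.415%, and thinning every barcode to 3000 UMIs before applying the rule gave 4.52%, 0.077% and 0.207%. In lymphocytes at least 2 Gpihbp1 UMIs occurred in 3 of 727, 0 of 1010 and 2 of 1546 cells. A share depends on every other cell type in the library and on dissociation, and cell numbers per lung were not measured.

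**Figure D3:**
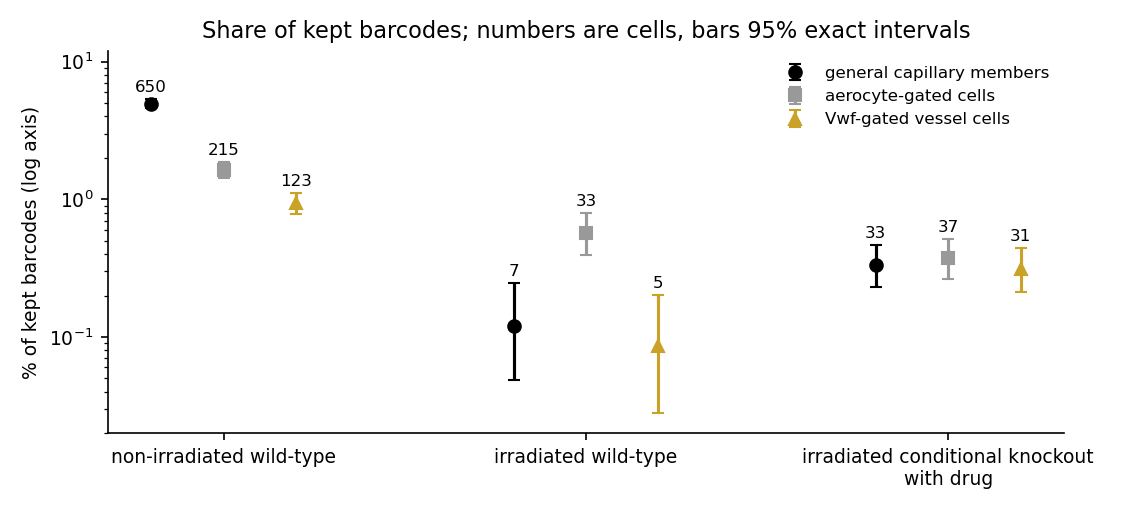
Share of kept barcodes (log axis) taken by general capillary members, aerocyte-gated cells and Vwf-gated vessel cells in each library, with exact binomial 95% intervals and the number of cells above each point. Members are the most numerous of the 3 sets in the non-irradiated library only.

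The 7 irradiated wild-type members had 11538, 10327, 8220, 7729, 6418, 3572 and 1512 UMIs. Their Gpihbp1 UMIs, in that order, were 6, 28, 5, 3, 12, 4 and 2. Sema3c had 5, 2, 12, 13, 0, 22 and 3 UMIs. Only the cell with 6418 UMIs lacked Sema3c. It also lacked Plvap, Kit and Aplnr, and it held 14 UMIs of Kdr and 12 of Apln. The cell with 10327 UMIs lacked Plvap, Kit and Aplnr too, with 10 UMIs of Kdr. The cell with 3572 UMIs held the most Sema3c, and without that cell Sema3c was at 765 CPM. Kit was found in 2 of the 7 cells, with 5 and 1 UMIs, and Aplnr in 1, with 3 UMIs. Vwf had 19 UMIs in the cell with 3572 UMIs, which also held 2 UMIs of Slc6a2, and at most 2 elsewhere. The 7 cells differed among themselves, and their sum weights the deeper ones.

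As a sum, Kit was at 122 against 500.0 CPM (4.11-fold lower, interval 1.88 to 11.2), Sema3c at 1156 against 1957 CPM (1.69-fold lower, interval 1.30 to 2.24) and Plvap at 669 against 1011 CPM (1.51-fold lower, interval 1.07 to 2.20). Aplnr, with 3 UMIs, gave 0.53 (interval 0.109 to 1.56) as a ratio, an interval that includes 1. Other capillary genes were lower in the sum as well: Tmem100, a target of bone morphogenetic protein signalling, was at 385 against 1647 CPM (4.28-fold lower, interval 2.73 to 7.11), Npr3 at 122 against 564 CPM, Hpgd at 568 against 2174 CPM and Tek at 223 against 664 CPM. Lpl was level, at 182 against 177 CPM. Over the wider general capillary list 1 of 16 tested genes were higher and 10 lower, with a median log2 ratio of -0.78. Over all tested genes 21.5% were at least 1.5-fold higher and 38.2% lower (median -0.18). The drop was not particular to members. In aerocyte-gated cells of this library, against their non-irradiated counterparts, 13 of 15 tested genes of the list were lower and 0 higher. Their median was -2.05, beside -0.03 over all tested genes.

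Higher calls were rare in the irradiated wild-type members: 21 of 9282 tested genes (0.226%). Lower calls numbered 2294 (24.7%), but 2227 of them had 3 or fewer UMIs in the 7 cells and 1777 had none, so the lower calls are not read further. By the naming rule the 12 lowest ratios were Abi3bp, Rpn2, Mospd2, Stag1, Acbd5, Cdr2l, Ltbp1, Triobp, Fmnl2, Tor1b, Vcam1 and Por, all without a UMI. Abi3bp, at 145 CPM without irradiation, was at least 2.38-fold lower against the limit of 3 UMIs, and Por at least 1.10-fold.

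Targets of p53 were among the higher calls. Cdkn1a, the cell cycle inhibitor p21, had 8, 9, 2, 20, 14, 0 and 7 UMIs in the 7 cells and stood at 1217 against 238 CPM (5.11-fold higher, interval 3.86 to 6.65). Phlda3, a p53-induced inhibitor of Akt signalling, had 6, 12, 1, 7, 2, 0 and 2 UMIs and stood at 608 against 123 CPM (4.96-fold higher, interval 3.30 to 7.20). The cell with 3572 UMIs, the one rich in Vwf, lacked both, and the other 6 had both. Cdkn1a was at 165 and Phlda3 at 2.43 CPM in lymphocytes of that library.

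Among the p53 list 13 of 20 tested genes were higher and 2 lower, with a median log2 ratio of 0.84. Bax, which permeabilises mitochondria, was at 365 against 139 CPM (2.63-fold higher, interval 1.54 to 4.21), Trp53inp1 at 162 against 28.2 CPM, Zmat3, an RNA-binding p53 effector, at 142 against 18.2 CPM and the cyclin Ccng1 at 101 against 17.3 CPM, the last 3 on 5 to 8 UMIs. Mdm2, which degrades p53, had a ratio whose interval included 1 (1.65-fold, interval 0.53 to 3.92), and Bbc3 had no UMI. The list's median was 0.93 without the deepest cell and 1.07 over cells without Vwf.

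Genes of glycolysis and hypoxia were the next group. In that list 13 of 17 tested genes were higher and 3 lower, with a median log2 ratio of 1.16, beside 21.5% and 38.2% of all tested genes. Ankrd37 was at 385 against 29.9 CPM (12.9-fold higher, interval 7.43 to 21.3) and had a UMI in 5 of the 7 cells, with 10 of 19 UMIs in 1. Ldha, lactate dehydrogenase, was at 426 against 134 CPM and Gapdh at 608 against 269 CPM, with 16 of 30 Gapdh UMIs in 1 cell. Vegfa and Hilpda, which hypoxia also induces in many cells, were lower, at 182 against 381 CPM and 122 against 631 CPM. Hilpda stood at 569.6 and 519.6 CPM in non-irradiated and irradiated wild-type lymphocytes.

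The naming rule gave 10 genes beside Cdkn1a and Phlda3. Sparcl1, a matricellular protein, was at 1095 against 226 CPM, the metalloproteinase inhibitor Timp3 at 1257 against 475 CPM and the phospholipid-binding Anxa2 at 1237 against 321 CPM, with 29 of 54 Sparcl1 UMIs and 32 of 61 Anxa2 UMIs in 1 cell each. Kdr had a UMI in all 7 cells and was at 973 against 391 CPM (2.49-fold higher, interval 1.82 to 3.32), below the 1629 CPM of non-irradiated aerocyte-gated cells. Tcim, Cebpd, Ccnd1, Ly6c1, Cd34 and Tapbp made up the rest, between 2.04-fold (Tapbp) and 4.58-fold (Tcim) higher. Apln, an aerocyte marker, was at 284 against 24.2 CPM, with 12 of its 14 UMIs in 1 cell. Of 8 tested aerocyte markers 4 were at least 1.5-fold higher and 2 lower, with a median log2 ratio of 0.34. Over all tested genes 21.5% were higher and 38.2% lower (median -0.18). Fabp5, a fatty acid-binding protein, was at 2068 CPM from 102 UMIs in 1 cell.

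Interferon-stimulated genes were high in 1 cell. Of the type I interferon list 19 of 25 tested genes were higher and 0 lower, beside 21.5% and 38.2% of all tested genes. The list's median log2 ratio was 0.97, but it was -0.26 without the deepest cell. The list of interferon-gamma GTPases and MHC class I went from 0.37 to -0.02 in the same way. That cell held 7 of 9 UMIs of Isg15 and all 16 of Iigp1. Arterial markers, at a median of 0.25, were at -0.50 without it.

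The 33 members of the irradiated knockout library with drug are compared with the same non-irradiated cells, so both sets of ratios share their denominator. Their Gpihbp1 UMIs ran from 2 to 18 with a median of 3, and 13 cells were at the threshold of 2. Sema3c ran from 0 to 10 (median 2), with a UMI in 25 cells, and Kit from 0 to 7 (median 1), with a UMI in 17. Sema3c was at 541 against 1957 CPM (3.62-fold lower, interval 3.00 to 4.39) and Kit at 214 against 500.0 CPM (2.34-fold lower, interval 1.74 to 3.22). Plvap was level (0.967-fold, interval 0.836 to 1.11), and Aplnr was at 176 against 115 CPM (1.53-fold higher, interval 1.06 to 2.15). However, 2 cells held 17 of the 37 Aplnr UMIs. After thinning to 1000 UMIs, Aplnr had a UMI in 6.90% of 29 cells (interval 0.846 to 22.8) and 12.8% of 608 non-irradiated members. For Plvap the thinned shares were 44.8% (interval 26.4 to 64.3) and 58.1%. Aplnr stood at 426 CPM in the 8 cells without Sema3c and at 84.3 CPM in the 25 with it.

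Other genes of the capillary program were lower as well in the sum of these cells, which were not alike. Epas1 was at 2098 against 4481 CPM (2.14-fold lower, interval 1.94 to 2.35), Bmpr2 at 836 against 1996 CPM, Tmem100 at 608 against 1647 CPM and Tek at 256 against 664 CPM. Cldn5 was at 1676 against 3339.8 CPM and Cd36 at 1372 against 2225 CPM. The 8 cells without Sema3c had a median of 5173 UMIs, against 4259 in the 25 with it. They held less Epas1 (568 against 2657 CPM), Cldn5 (373 against 2152 CPM), Bmpr2 (408 against 992 CPM) and Tek (106 against 311 CPM). This split was chosen after the values were seen, and whether these 8 cells are of the same kind was not tested. In the wider general capillary list 2 of 16 tested genes were higher and 10 lower, with a median log2 ratio of -0.84, beside 14.3% of all tested genes higher and 18.9% lower (median -0.04). Cxcl12 and Edn1, at 1319.8 against 982 CPM and 289.6 against 163 CPM, went the other way. Cxcl12 was at 2129 CPM in the cells without Sema3c and 1024 CPM in those with it, and 2 cells held 156 of its 278 UMIs. In aerocyte-gated cells of this library the wider general capillary list was lower too, in 13 of 15 tested genes, with 0 higher. Its median log2 ratio to non-irradiated aerocyte-gated cells was -1.53, beside -0.04 over all tested genes.

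In these 33 cells 78 of 9428 tested genes (0.827%) were apart upward and 650 (6.89%) downward, of which 490 had 3 or fewer UMIs. The 12 named lower genes were Lyz1, Tppp3, Casc4, Pde5a, Neurl1b, Nkd2, Rab3a, Ccdc102a, Parp10, Nagpa, Gphn and Dpp4, and 10 of them had no UMI. Casc4 was at 42.7 against 414 CPM (9.69-fold lower, interval 5.09 to 21.2) and Dpp4, a peptidase of the cell surface, at 19.0 against 123 CPM (6.46-fold lower, interval 2.50 to 23.8). Lyz1 had been at 63.4 CPM and was at least 4.45-fold lower.

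Genes of the p53 response were higher in this library too. Cdkn1a, with a UMI in 26 of 33 cells (0 to 13, median 2), was at 522 against 238 CPM (2.19-fold higher, interval 1.78 to 2.68). Phlda3, with a UMI in 18 cells (0 to 31, median 1), was at 456 against 123 CPM (3.71-fold higher, interval 2.93 to 4.66). Gdf15, a stress cytokine, was at 57.0 against 13.3 CPM on 12 UMIs. Of the list, 8 of 20 tested genes were higher and 0 lower, with a median log2 ratio of 0.29, beside 14.3% and 18.9% of all tested genes.

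The glycolysis and hypoxia list reached a median log2 ratio of 1.13 with 14 of 17 genes higher, beside 14.3% of all tested genes. Eno1, enolase, was at 214 against 49.1 CPM (4.35-fold higher, interval 3.04 to 6.11), Gapdh at 646 against 269 CPM and Bnip3, a mitophagy receptor, at 90.2 against 17.9 CPM. Ankrd37 was at 404 against 29.9 CPM, with 43 of its 85 UMIs in the deepest cell, which holds 28022 of the 210643 UMIs. The list's median was 0.89 without that cell and 0.58 over the 19 cells without Vwf.

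**Figure D4:**
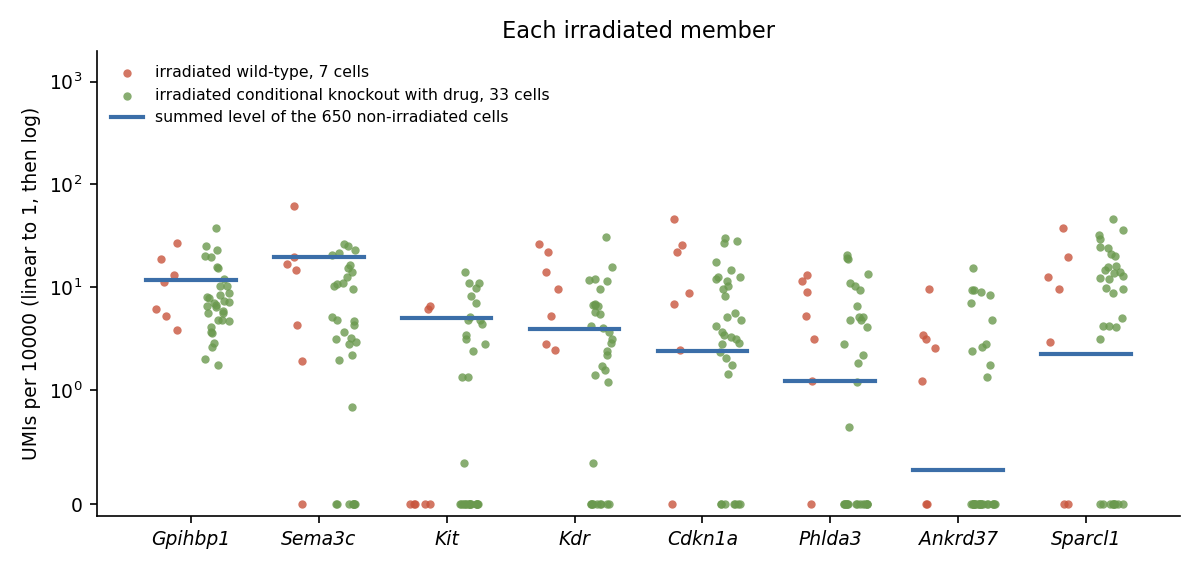
UMIs per 10000 of 8 genes in each of the 7 irradiated wild-type members and the 33 members of the irradiated knockout library with drug (points), with the summed level of the 650 non-irradiated members (blue line). The axis is linear up to 1 and logarithmic above. With zeros counted, the cells above the line numbered 6 and 22 (of 7 and of 33) for Cdkn1a, 5 and 16 for Phlda3, 5 and 12 for Ankrd37, 5 and 24 for Sparcl1 and 2 and 5 for Sema3c.

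Venous and adhesion genes were higher in the knockout library's members. In the venous list 7 of 11 tested genes were higher and 1 lower, with a median log2 ratio of 1.13. In the list of leukocyte adhesion and haemostasis 10 of 15 tested genes were higher and 0 lower, with a median log2 ratio of 1.10. Over all tested genes 14.3% were that much higher and 18.9% lower. Vwf was at 1419 against 571 CPM (2.49-fold higher, interval 2.19 to 2.81), with 98 of 299 UMIs in the deepest cell. Selp, the selectin that catches rolling leukocytes, was at 104 against 6.64 CPM, with 20 of 22 UMIs in 1 cell, and Ackr1, a chemokine receptor of venules, had 9 UMIs, all in 1 cell. At least 3 Vwf UMIs were found in 12 of 33 cells (36.4%), against 112 of 650 (17.2%) without irradiation and 1 of 7 in irradiated wild-type, at unequal depths. With cells thinned to 1000 UMIs, at least 1 Vwf UMI remained in 31.0% of 29 cells (interval 15.3 to 50.8) and 21.5% of 608, a value within that interval. Slc6a2 had a UMI in 4 of the 33 cells, and 1 cell held 35 of its 60 UMIs. Over cells without Vwf the venous median was 0.57.

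Matrix and activation genes were also higher: of that list 11 of 17 tested genes were higher and 3 lower, with a median log2 ratio of 1.00. Over all tested genes the shares were 14.3% and 18.9%. Sparcl1 was at 1016 against 226 CPM (4.50-fold higher, interval 3.84 to 5.26) in 24 cells, Hspg2, which encodes perlecan, at 252 against 11.9 CPM, and Lrg1 at 379.8 against 67.7 CPM with 39 of 80 UMIs in the deepest cell. Acta2 and Tagln, genes of smooth muscle, were lower in level (0 and 9.49 CPM against 43.8 and 51.4 CPM). Ltc4s, leukotriene C4 synthase, was at 228 against 1.99 CPM (114-fold higher, interval 48.9 to 327), but 43 of 48 UMIs were in 2 cells, and its log2 ratio was -0.41 with members thinned to 1000 UMIs. It was at 264 CPM in the irradiated wild-type members, with 10 of 13 UMIs in 1 cell. Igfbp7 was at 1614 against 272 CPM, below its 2885 CPM in non-irradiated aerocyte-gated cells. Vwa1, Rgcc, Prnp, Noct (with 28 of 42 UMIs in 1 cell) and Adgrg1 were the other named genes, and Rgcc stood at 127 CPM in lymphocytes.

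The number of higher genes depended on few cells. It was 54 without the deepest cell and 21 over the 19 cells without Vwf, against 78 with all 33. MHC class II genes show the same dependence: Cd74, the class II chaperone, was at 2259.8 against 1105 CPM, but 306 of its 476 UMIs were in the deepest cell, and the list's median went from 0.31 to -0.49 without it. Cd74 was at 285 CPM in T cells of that library. Fabp4, at 769 CPM, came from 162 UMIs in 2 cells.

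Beside these, 5.24% of 8695 tested genes were apart downward in the aerocyte-gated cells of the knockout library against their non-irradiated counterparts, and 11 genes that were apart upward in members were among them: Fabp5, Fam198b, Col15a1, Slc6a6, Vwf, Slc6a2, Rgcc, H2-Eb1, Hbegf, Cd74 and Avpi1.

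**Figure D5:**
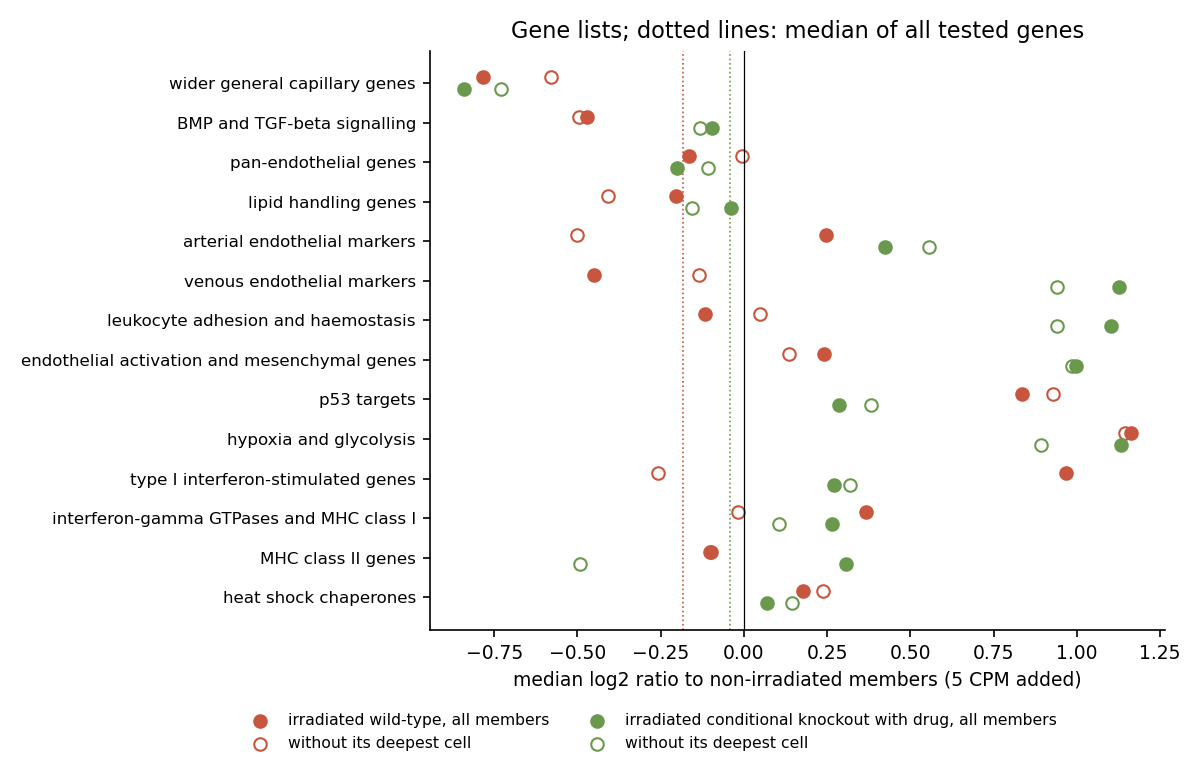
Median log2 ratio (5 CPM added) of 14 gene lists, without genes of the rule, in irradiated wild-type members (red) and in members of the irradiated knockout library with drug (green), each against the same non-irradiated members, for all members (filled) and without the deepest cell of each library (open). The p53 and the hypoxia and glycolysis lists stay above 0 in both. Among the lists that cross 0 are, in irradiated wild-type members, type I interferon, interferon-gamma and MHC class I, and arterial markers. In the knockout library MHC class II genes are among them.

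Between the irradiated libraries, the knockout with drug had 137 of 2564 tested genes (5.34%) apart upward and 14 (0.546%) downward against wild-type. The 12 highest ratios were Gadd45g, Noct, Col15a1, Tfpi, Serpinb1a, Pcp4l1, Rgcc, Lrg1, Hbegf, Cavin3, Bgn and Pdcl3, each with at most 2 UMIs in the 7 wild-type cells. The lower genes named by the rule were Adamts1, Tcim, Tapbp, Cdkn1a, Slfn5, Clic5, Sema3c, Kdr and Icam2. Cdkn1a was at 522 CPM (interval 429 to 629) against 1217 CPM (928 to 1566), and Kdr at 456 (369 to 557) against 973 (718 to 1290.5). Sema3c was at 541 (446 to 650.1) against 1156 CPM (875 to 1497), and over cells without Vwf the log2 ratio was 0.053. The venous list was higher in 7 of 9 tested genes, beside 23.6% of all tested genes. With 7 cells on 1 side, a single cell can decide such a value.

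Further lists are given by their medians in irradiated wild-type and in knockout members, beside -0.18 and -0.04 over all tested genes. Heat shock chaperones had medians of 0.18 and 0.07, and pan-endothelial genes -0.17 and -0.20. Pecam1 was at 1527, 1825 and 1282 CPM in the 3 libraries, and Cdh5, which with it chose the cells, at 2063, 1845 and 1548 CPM. Lipid handling genes had medians of -0.20 and -0.04, and BMP and TGF-beta signalling genes -0.47 and -0.10. Genes of type 2 epithelium, as free RNA, were lower in 10 of 10 in both irradiated libraries, with medians of -4.03 and -3.03. Free RNA is part of the total that CPM are taken of, and its part in the ratios above was not tested. Mki67 or Top2a had a UMI in 0 of 7 and 2 of 33 irradiated members, and the exact interval of 0 of 7 reaches 41.0%.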

How the data were processed

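The deposited matrices hold raw UMI counts per gene and barcode, which the authors did not normalise, for 31054 features. Per the file headers the software version is 3.1.0, without a name, and the submitters' processing notes give the genome build mm10. The smallest barcode has 500 UMIs. For the aligner and the gene annotation: not given in the sources used here.

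Members were taken by the rule on all 3 matrices with python 3.11.15, numpy 2.4.6, scipy 1.17.1 and pandas 2.3.3, and UMIs were summed over them and scaled to CPM. Log2 ratios have 5 CPM added. A gene was tested with at least 20 UMIs over both sets and called apart at 2-fold with at least 30 UMIs in the higher set. Lists were counted at 1.5-fold, without genes of the rule (a choice made after seeing the data). Fold changes in the text are ratios of CPM with exact intervals at 95%, and shares have Clopper-Pearson intervals. Genes were named as the 15 highest levels, the 15 highest and 10 lowest ratios to aerocyte-gated cells, the 12 highest and 12 lowest ratios per comparison (at least 2 times the level in lymphocytes, in at least 5 cells, without mitochondrial, ribosomal, haemoglobin, clone-named, X-inactivation, Y-linked and receptor-segment genes), leading genes of each list, and the 12 most variable genes. Bst1, Amigo2, Car8, Igfbp5, Cpe, Apln, Fabp4, Fabp5, Gja5, Isg15, Iigp1 and Scn7a were named after their values were seen. Lymphocytes (Ptprc at least 1, Cd79a and Cd3e at least 2 together, no endothelial, fibroblast or epithelial marker) and, chosen later, T cells alone measured free RNA. Thinning used seed 1. Doublets were scored with Scrublet in scanpy 1.11.5, at 0.8% per 1000 barcodes, as an alternative. The comparison was tested on simulated counts. Promoters came from RefSeq. Members and gene lists were chosen with earlier results of these data known.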

Additional observations from a re-analysis of the deposited data

Results flagged for a closer look

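8 genes stood out because they were called apart in opposite directions in 2 kinds of capillary cell of the irradiated knockout library with drug: higher in members and lower in aerocyte-gated cells, each against the non-irradiated cells of its own kind. They also had a UMI in at least 5 members and at least 2 times the level of lymphocytes. The difference between the 2 kinds was not tested, since each group is 1 library. Other vessel genes were lower in these aerocyte-gated cells too. Of the wider general capillary list 13 of 15 tested genes were at least 1.5-fold lower and 0 higher (median log2 ratio -1.53). Of the aerocyte markers 2 of 12 tested were lower and 1 higher. Fabp5, a fatty acid-binding protein, had log2 ratios of 1.51 in members (152 against 50.1 CPM) and -1.22 in aerocyte-gated cells (9.88 against 29.6 CPM). Fam198b had log2 ratios of 1.13 in members (204 against 90.6 CPM) and -1.92 in aerocyte-gated cells (9.88 against 51.2 CPM). Col15a1, a basement membrane collagen, had log2 ratios of 1.34 in members (176 against 66.4 CPM) and -1.09 in aerocyte-gated cells (9.88 against 26.6 CPM). Slc6a6, the taurine transporter, had log2 ratios of 1.33 in members (394 against 154 CPM) and -2.24 in aerocyte-gated cells (16.5 against 96.4 CPM). Vwf, von Willebrand factor, had log2 ratios of 1.31 in members (1419 against 571 CPM) and -3.83 in aerocyte-gated cells (13.2 against 253 CPM). Rgcc had log2 ratios of 3.09 in members (475 against 51.4 CPM) and -1.39 in aerocyte-gated cells (13.2 against 42.7 CPM). Hbegf, an epidermal growth factor-like ligand, had log2 ratios of 1.40 in members (204 against 74.0 CPM) and -2.35 in aerocyte-gated cells (3.29 against 37.1 CPM). Avpi1 had log2 ratios of 1.18 in members (218 against 93.6 CPM) and -1.75 in aerocyte-gated cells (16.5 against 67.3 CPM). The aerocyte-gated cells numbered 37 in the knockout library and 215 without irradiation. Those 37 cells hold 303498 UMIs together, so their lower values rest on few UMIs. The deepest member of the knockout library holds 98 of the 299 Vwf UMIs. In members of that library 1 cell held 27 of 43 Hbegf UMIs, 16 of 32 of Fabp5, 16 of 37 of Col15a1 and 41 of 100 of Rgcc. Non-irradiated lymphocytes held 125 CPM of Fabp5 and 208 CPM of Rgcc, more than the non-irradiated cells of either kind.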

How the results depend on the processing

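Of 99 alternative values for shares and counts, 68 stayed within their bounds and 31 moved. The member share of non-irradiated barcodes was 7.17% and 3.70% at thresholds of 1 and 3 Gpihbp1 UMIs, 5.41% without the highest doublet scores, 4.52% after thinning to 3000 UMIs and 5.50% in barcodes of female type. That of the knockout library was 0.202% at 3 UMIs and 0.207% after thinning. Genes higher in irradiated wild-type members numbered 964 with no UMI minimum, 2 with a minimum of 100 and 0 with members thinned to 1000 UMIs, and lower genes 1086 with 20 CPM added, 813 with a minimum of 100 and 144 where the lower library needed 3 UMIs. For the knockout library against non-irradiated the same settings gave 466, 20 and 3 higher genes, members without Vwf 21, and 162, 261 and 259 lower genes. Between the irradiated libraries no minimum, a minimum of 100 and thinning gave 299, 19 and 14 higher and 169, 2 and 0 lower genes, and members without Vwf 67 higher. Against aerocyte-gated cells 20 were higher and 128 lower with 20 CPM added, and 309 and 131 with cells thinned to 1000 UMIs. The share of higher among all calls was 34.4% there, 13.5% with 20 CPM added and 70.2% when thinned. For the knockout against non-irradiated it went from 10.7% to 29.3% with 20 CPM added. Median-of-ratios scaling moved the median of all genes in irradiated wild-type from -0.18 to -0.33.

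Over gene lists, 422 of 518 values stayed, 84 moved and 12 changed sign. In irradiated wild-type these were type I interferon genes (-3.28 thinned, -0.26 without the deepest cell), interferon-gamma and MHC class I genes (-0.13 and -0.016), the BCL2 family (-1.77 thinned, -0.43 without Vwf) and repair genes (-1.05 thinned). In the knockout library they were MHC class II genes (-0.16 thinned, -0.49 without the deepest cell, -0.90 without Vwf), and between the irradiated libraries VEGF signalling (0.25) and repair genes (0.084), both without Vwf. With members thinned, the median of all tested genes in irradiated wild-type was itself -2.92. The thinned sign changes there are therefore not read as shifts of these lists. Of named genes 733 of 928 values kept their call, 190 lost it and 5 changed sign: Ltc4s in the knockout library (-0.41 thinned), and between the irradiated libraries Adamts1 (0.12) and Sema3c (0.053) without Vwf, and Clic5 (0.45) and Pdcl3 (-0.049) thinned. The settings without the deepest cell, without Vwf, without the rule's genes and with 3 UMIs in the lower library were chosen after seeing the data. The cause of these shifts was not tested, except that thinning and minimums leave fewer UMIs. With 7 and 33 cells, depth limits every value of the irradiated members, and differences between mice were not measured. No paired analysis was possible because each group is 1 library.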
